A study of Homo sapiens with 4 samples.

Results

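The TRIM genes encode the tripartite motif proteins, here all protein-coding genes whose symbol begins with TRIM and a number. They made up 78 of the 57820 gene identifiers in the count data, and were compared between 2 forms of the A549 line, which is derived from a human lung adenocarcinoma. The first group was parental A549 with epithelial morphology. The second was TD, which is A549 maintained on transforming growth factor beta (TGF-β, 2 ng/ml, given every 3 days) and described as mesenchymal-like. Each group had 2 libraries of polyadenylated RNA. Whether replicate libraries were made from separate cultures, and whether TD is a single clone, is not given in the sources used here. The p-values therefore reflect the spread between libraries alone, and part of that spread may be technical.

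TRIM proteins share an N-terminal RING finger, B-box zinc-binding domains and a coiled coil, and differ in their C-terminal domains. The RING finger recruits an E2 enzyme, so most members act as E3 ubiquitin ligases, while a few lack the RING. In epithelial cells many members act in innate immunity, where they attach ubiquitin to RNA sensors and their adaptors or bind viral particles, and interferon is known to induce several of them. Other members repress chromatin, bind microtubules or ligate muscle and neuronal proteins.

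Of the 78 members, 48 had enough counts to be tested, and 29 of these were called at an adjusted p below 0.05. In TD 11 rose and 18 fell. Over all 17785 tested genes, 43.0% were called in either direction, 21.6% as higher and 21.4% as lower. The members' shares were 60.4%, 22.9% and 37.5%. Falls of at least 2-fold were called for 13 members (27.1%), against 12.3% of all tested genes, and rises of at least 2-fold for 5 members (10.4%), against 9.49%. The share of members called higher was thus close to that of all genes, and the share called lower was above it. All members are protein-coding, while the tested genes include noncoding ones. Of the 13208 tested protein-coding genes, 3394 were called higher and 3289 lower. The median log2 change of the 48 members was -0.08 beside -0.04 over all tested genes, and -0.22 without TD replicate 2. Without A549 replicate 1, 7 members rose.

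**Figure D1:**
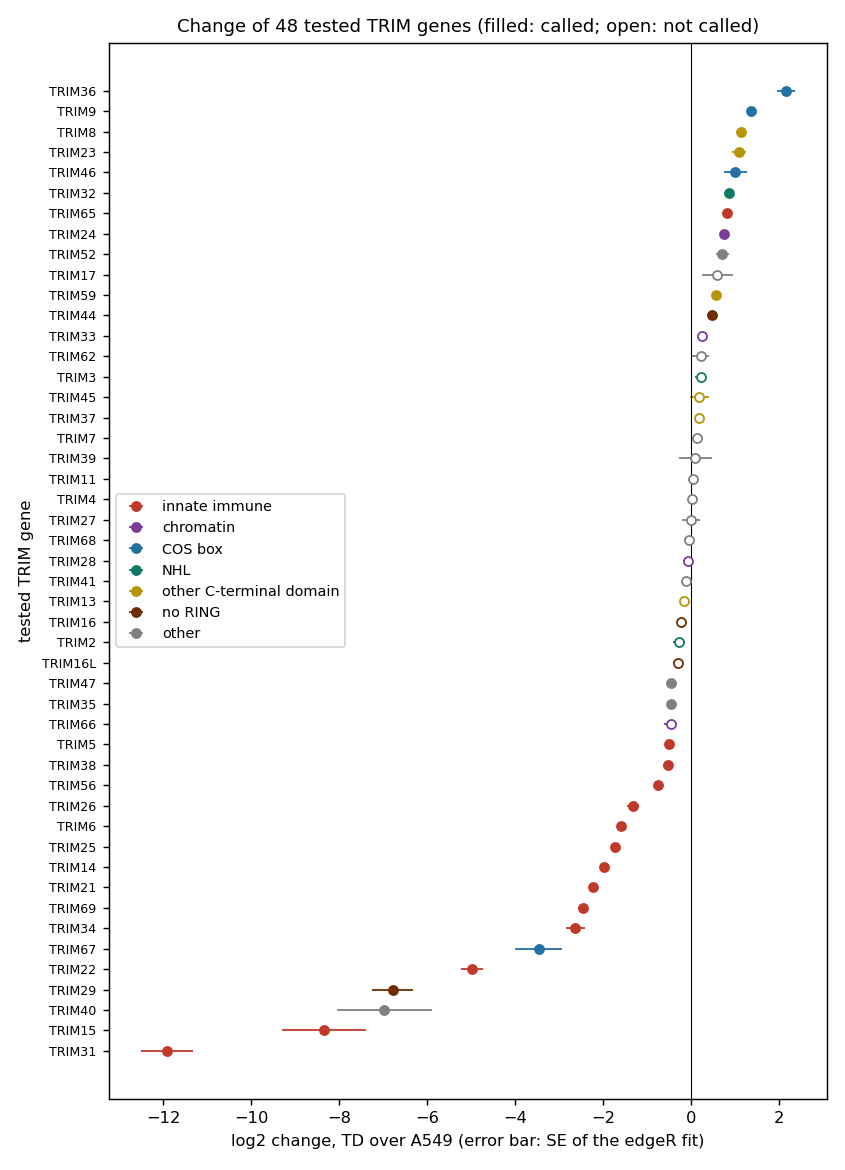
Each row is 1 of the 48 tested TRIM genes, the horizontal axis gives the log2 change of TD over A549, bars are standard errors, and filled points are called genes. The 13 falls of at least 2-fold hold 10 of the 14 genes placed in the innate immune class. The 5 rises of at least 2-fold are TRIM36, TRIM9, TRIM8, TRIM23 and TRIM46. The values of TRIM31, TRIM15 and TRIM40, which had 0 counts in TD, depend on the prior count of the fit.

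The labels were checked against markers of the epithelial and the mesenchymal state. CDH1 (E-cadherin) fell by 6.0 on the log2 scale, while CDH2 (N-cadherin), VIM (vimentin) and FN1 (fibronectin) rose by 8.58, 2.17 and 3.24. The epithelial markers EPCAM, CDH1, KRT8, KRT18 and KRT19 summed to 15317 and 16118 CPM (counts relative to the TMM-scaled library size) in A549 and to 1729 and 2070 CPM in TD. All 5 were called lower. KRT19 was no longer called without A549 replicate 1 (adjusted p = 0.117) or 2 (0.102). Markers of other cell types were close to 0: leukocyte markers summed to at most 1.93 CPM in any library, fibroblast markers to at most 0.276 CPM and endothelial markers to at most 0.144 CPM, and CD3E was at 0 in all 4. Library totals were 26729278 to 44133836 gene counts. In bulk RNA, fewer cells carrying a transcript and less of it per cell cannot be told apart.

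A known hallmark of interferon-induced genes is the interferon-stimulated response element, a short promoter sequence through which interferon signalling raises transcription. Promoter windows from RefSeq (GRCh38.p14, 250 bases before the gene start and 50 bases from it on) were available for 60 of the 78 members. They were searched on both strands for the core, which is GAAA, any 2 bases and GAAA again (on the other strand TTTC, any 2 bases and TTTC), with overlapping matches counted. The core was in 10 of these 60 windows (16.7%) and in 9 of the 36 that belonged to tested members (25%), beside 3.57% of all 35116 RefSeq windows of that length, noncoding genes included. The 5 windows below, written on the gene's strand with the core in capitals, are those of the 4 holders with the largest falls in TD and of TRIM44, the only holder that was called higher.
TRIM21 (chr11:4393653-4393952, minus strand): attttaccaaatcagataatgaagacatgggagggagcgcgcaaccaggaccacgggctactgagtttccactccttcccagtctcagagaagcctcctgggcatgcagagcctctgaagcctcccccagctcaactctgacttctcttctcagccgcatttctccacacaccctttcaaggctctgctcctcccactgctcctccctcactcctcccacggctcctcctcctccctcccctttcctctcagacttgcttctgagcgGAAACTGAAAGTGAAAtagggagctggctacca
TRIM14 (chr9:98119173-98119472, minus strand): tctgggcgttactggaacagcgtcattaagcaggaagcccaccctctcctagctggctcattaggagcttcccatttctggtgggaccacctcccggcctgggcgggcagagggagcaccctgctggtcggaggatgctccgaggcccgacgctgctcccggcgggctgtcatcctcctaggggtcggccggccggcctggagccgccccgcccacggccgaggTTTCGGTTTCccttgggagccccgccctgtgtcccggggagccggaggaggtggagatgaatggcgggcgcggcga
TRIM69 (chr15:44736278-44736577, plus strand): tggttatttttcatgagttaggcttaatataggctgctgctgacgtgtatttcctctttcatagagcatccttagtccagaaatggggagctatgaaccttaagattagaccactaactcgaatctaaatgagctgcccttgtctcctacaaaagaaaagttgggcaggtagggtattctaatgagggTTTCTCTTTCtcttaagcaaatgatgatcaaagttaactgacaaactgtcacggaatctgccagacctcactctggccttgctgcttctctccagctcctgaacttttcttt
TRIM34 (chr11:5624751-5625050, plus strand): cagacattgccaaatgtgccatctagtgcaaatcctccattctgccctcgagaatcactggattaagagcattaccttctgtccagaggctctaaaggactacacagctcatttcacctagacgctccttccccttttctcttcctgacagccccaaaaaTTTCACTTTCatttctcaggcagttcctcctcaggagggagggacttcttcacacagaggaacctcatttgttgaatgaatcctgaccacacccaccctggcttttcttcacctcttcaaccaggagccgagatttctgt
TRIM44 (chr11:35662525-35662824, plus strand): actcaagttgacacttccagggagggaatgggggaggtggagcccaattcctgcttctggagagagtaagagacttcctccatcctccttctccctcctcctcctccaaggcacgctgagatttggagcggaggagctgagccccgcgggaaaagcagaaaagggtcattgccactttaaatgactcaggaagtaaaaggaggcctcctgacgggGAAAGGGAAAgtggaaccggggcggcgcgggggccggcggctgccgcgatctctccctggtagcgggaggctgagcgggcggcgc
In TRIM21 a pair of overlapping cores began at bases 18 and 24 counted from the gene start. TRIM14 held its core at -26, TRIM69 at -62, TRIM34 at -90 and TRIM44 at -35. The other tested holders were TRIM26, with overlapping cores at -194 and -188, TRIM5 at -27, TRIM16 at -80 and TRIM2 at -217. A match is a run of letters and does not show a bound site.

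Of the 9 tested members with the core, 6 were called lower, 1 higher and 2 were not called, with a median log2 change of -1.31. Calls over all tested genes were 21.4% lower and 21.6% higher. Of the 27 tested members with a window but without the core, 9 were lower, 8 higher and 10 not called, with a median of 0.14. The members with the 3 largest falls among those with a window, TRIM31, TRIM15 and TRIM40, did not hold these letters there. Among the 13 members with a window that were placed in the innate immune class, 6 held the core. These are the same 6 holders that were called lower. The split by the core is thus not separate from that class, and the difference between its 2 sets was not tested.

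**Figure D2:**
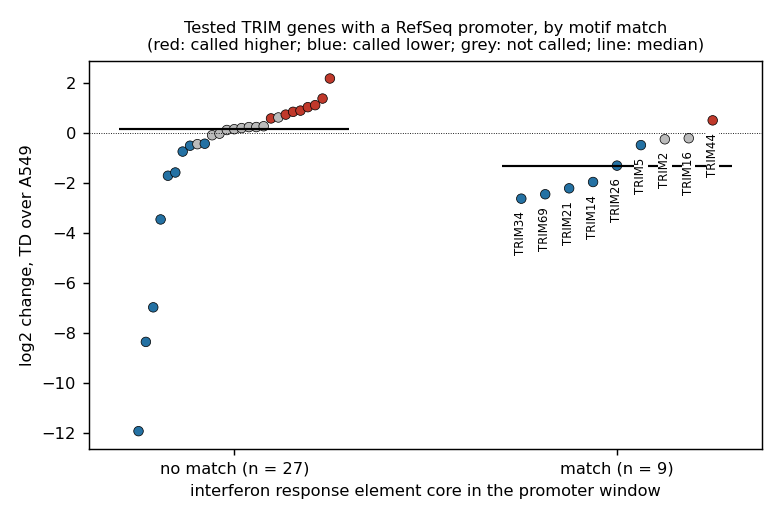
Log2 change of TD over A549 for the 36 tested TRIM genes with a RefSeq promoter window, split by a match to the interferon response element core, with the median of each set as a line. The 9 genes with a match have a median of -1.31 and the 27 without a match one of 0.14, and the lowest points lie among those without a match.

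Motifs of other factors were searched in the same windows and on both strands. The E-box CAGGTG, a sequence bound by SNAI and ZEB repressors, was in 8 of 60 member windows (13.3%) and in 20.6% of all windows. Its tested holders were TRIM15, TRIM37 and TRIM59. The SMAD palindrome GTCTAGAC was in 0 of the 60 and in 0.202% of all windows.

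Nearly all of the genes placed in the innate immune class were lower in TD. Of the 14 genes placed in this class, all tested, 13 fell, 10 of them by at least 2-fold, and 1, TRIM65, rose. Calls over all tested genes were 21.4% lower, 12.3% lower by at least 2-fold and 21.6% higher. Other members linked to innate or cytokine responses were placed elsewhere, such as TRIM29, which fell, and TRIM8, which rose. The class was also drawn with earlier results of these data known. Its counts therefore cannot show that innate immune members differ from other members. The median log2 change of the 14 genes was -1.84. Their CPM summed to 637.8 and 633 in the A549 libraries and to 270.2 and 277 in the TD libraries. Without TRIM25, which had the highest CPM of them in A549, the sums were 412 and 409 in A549 and 204 and 207 in TD. Leaving out A549 replicate 2 left 10 that fell, and leaving out A549 replicate 1 left 12.

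Of the members in the innate immune class that act in RNA sensing and its signalling, TRIM25, TRIM14, TRIM6 and TRIM31 fell by at least 2-fold. TRIM65 rose. TRIM25, which ubiquitylates the RNA sensor RIG-I, stood at 225 and 224 CPM in A549 and at 66.1 and 70.4 CPM in TD (log2 change -1.72, SE 0.077, adjusted p = 0.000142). TRIM14, an adaptor without a RING that binds the mitochondrial protein MAVS, stood at 65.1 and 64.8 CPM in A549 and at 16.0 and 17.1 CPM in TD (-1.97, SE 0.079, adjusted p = 0.000104). TRIM6, which makes unanchored ubiquitin chains in interferon signalling, stood at 29.5 and 28.7 CPM against 9.55 and 9.81 CPM (-1.59, SE 0.082, adjusted p = 0.000214). In each of these the libraries of a group lay close together and the groups were well apart. TRIM31, a ligase for MAVS that is mainly expressed in epithelia, had 508 and 355 counts in A549 (18.3 and 12.0 CPM) and 0 in either TD library. Taking 3 counts over the TD group as the upper limit for a count of 0, it was at least 349-fold lower (adjusted p = 0.000641). TRIM65, a ligase for the sensor MDA5, went the other way: 40.0 and 36.6 CPM in A549 and 67.1 and 69.2 CPM in TD (0.83, SE 0.081, adjusted p = 0.00158), so both TD libraries lay above both A549 libraries. Other genes of this pathway went different ways. DDX58, the sensor RIG-I itself, fell from 139 and 168 CPM in A549 to 11.6 and 13.2 CPM in TD (-3.63, adjusted p = 8.86e-05). The adaptor MAVS (-0.24, adjusted p = 0.157) and the RIG-I ligase RNF135 (0.10, adjusted p = 0.519) were not called. The ligases TRAF3 (0.94, adjusted p = 0.00154) and TRAF6 (0.49, adjusted p = 0.0179) rose. In the whole list of nucleic acid sensing, 6 of 12 tested genes fell and 3 rose. DDX58, MAVS, RNF135, TRAF3 and TRAF6 were named after their values were seen.

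Further innate immune members fell as well, among them some that act on virus particles or antibodies. TRIM21, the cytosolic antibody receptor, stood at 59.9 and 63.6 CPM in A549 and at 13.9 and 12.7 CPM in TD (-2.22, SE 0.089, adjusted p = 0.000105). TRIM22, an interferon-induced antiviral protein, stood at 12.0 and 14.8 CPM in A549 and at 0.345 and 0.492 CPM in TD, or 10 and 20 counts (-4.97, SE 0.25, adjusted p = 0.000192). Its TD values thus rest on few counts. TRIM69, which restricts certain RNA viruses, stood at 32.7 and 35.0 CPM against 5.82 and 6.47 CPM (-2.46, SE 0.10, adjusted p = 0.000112). TRIM34 stood at 6.79 and 8.83 CPM against 1.21 and 1.30 CPM (-2.63, SE 0.22, adjusted p = 0.00092). TRIM26 stood at 18.5 and 19.1 CPM against 6.69 and 8.39 CPM (-1.31, SE 0.14, adjusted p = 0.00204). All 5 had groups that did not overlap, as did 83.3% of the tested members and 74.0% of all tested genes. Smaller falls were those of TRIM56, a ligase of the DNA-sensing pathway (-0.75, adjusted p = 0.00202), of TRIM38, which limits inflammatory signalling (-0.52, adjusted p = 0.022), and of TRIM5, which binds retroviral capsids (-0.50, adjusted p = 0.0129). TRIM38 was not called when A549 replicate 2 was left out (adjusted p = 0.116), nor TRIM5 when A549 replicate 1 (0.0971) or 2 (0.0646) was.

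**Figure D3:**
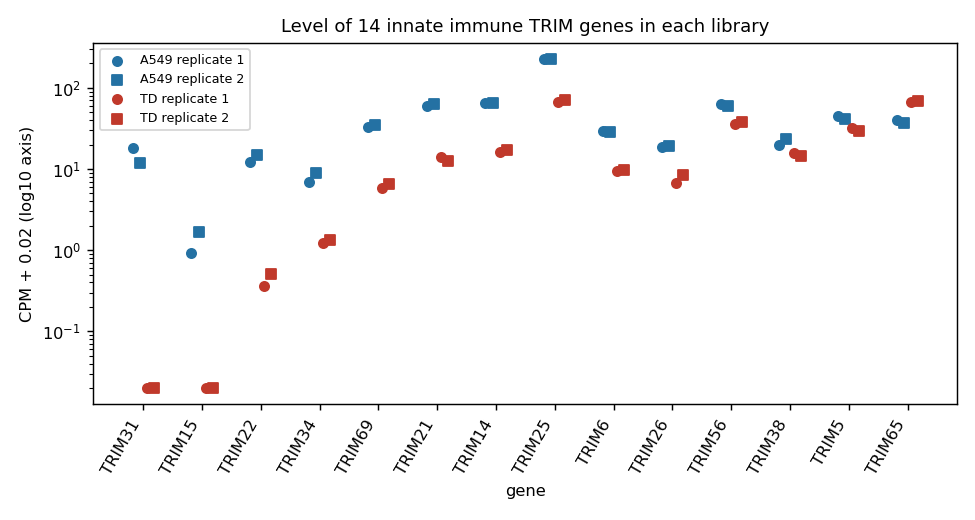
Level of the 14 TRIM genes placed in the innate immune class in each library, as CPM plus 0.02 on a log10 axis. A549 is in blue and TD in red. In 13 genes both TD points lie below both A549 points, TRIM65 is the other way round, and TRIM31 and TRIM15 have 0 counts in TD.

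TRIM genes lie in groups on some chromosomes, and neighbours on chromosome 6 and chromosome 11 differed in how far they fell. On chromosome 6, in the major histocompatibility complex region, TRIM31, TRIM40, TRIM10 and TRIM15 follow one another in the GENCODE 29 gene order, and all 4 had 0 counts in TD. TRIM15, a focal adhesion protein also linked to RNA sensing, had 25 and 49 counts in A549, which makes it at least 29.9-fold lower in TD (adjusted p = 0.00552). TRIM40, a gastrointestinal member, had 15 and 13 counts there and was at least 11.3-fold lower (adjusted p = 0.0123). Both calls rest on few counts: without A549 replicate 2 the adjusted p was 0.082 for TRIM15 and 0.131 for TRIM40. TRIM10 had 4 counts in each A549 library, was not tested, and was at least 3.23-fold lower by counts. The next members in the order, TRIM26 and TRIM39, had counts in TD. TRIM39, not called (adjusted p = 0.838), stood at 1.04 and 0.708 CPM in A549 and at 0.793 and 1.08 CPM in TD. On the other side lay PPP1R11, looked at after its values were seen, with 6.54 and 0.27 CPM in the 2 A549 libraries and 5.10 and 5.24 CPM in TD. Counts of this region can thus differ between replicates by far more than those of the members above, and the part of this in their values was not tested. Whether the alignment index held the alternate haplotypes of this region is not given in the sources used here. Reads that match such copies equally well would go uncounted, so the counts of TRIM31, TRIM40, TRIM10, TRIM15, TRIM26 and TRIM39 may be too low by an unknown amount.

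On chromosome 11, TRIM6, TRIM34, TRIM5 and TRIM22 follow one another and all fell, with log2 changes of -1.59, -2.63, -0.50 and -4.97. The neighbours TRIM5 and TRIM22, which are related in sequence, thus had the smallest and the largest fall of the 4. TRIM6 and TRIM34 share 29.3% and 83.0% of their exon bases with the readthrough gene TRIM6-TRIM34 in GENCODE 29. Reads in shared bases can be given to no gene, so the levels of this pair may be too low, and the readthrough gene itself had 1 count in all. Chromosome 11 held 23 of the 78 members. Of its 10 tested members 6 fell, 1 rose and 3 were not called. The shares were 37.5% lower and 22.9% higher over all tested members, and 21.4% and 21.6% over all tested genes. Whether this chromosome differs from others was not tested.

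Members without a RING finger other than TRIM14 went different ways. TRIM29, an epithelial member that binds keratins and also regulates innate responses in the airway, had 347 and 386 counts in A549 (12.5 and 13.0 CPM) and 1 and 7 in TD (0.0345 and 0.172 CPM). Its fitted change was -6.78 (SE 0.46, adjusted p = 0.000511), and -6.17 without TD replicate 1 and -8.36 without TD replicate 2. Its TD libraries were close to 0 and its A549 libraries differed little. TRIM44, which has a deubiquitinase-type zinc finger and is known to stabilise partner proteins, rose from 60.6 and 65.9 CPM to 91.4 and 86.3 CPM (0.49, SE 0.082, adjusted p = 0.00865). Leaving out A549 replicate 1 or 2 ended the call of TRIM44 (adjusted p = 0.091 and 0.054). TRIM16 and TRIM16L, a near-identical pair whose reads may be split between them, had log2 changes of -0.22 and -0.29 and were not called (adjusted p = 0.131 and 0.117). Over the alternatives the change ranged from -0.33 to -0.11 for TRIM16 and from -0.46 to -0.14 for TRIM16L. Both were called lower in some of these.

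Of the 4 tested members that bind microtubules through the COS box, 3 rose and 1 fell. MID1 and MID2, TRIM proteins of the same class under other symbols, did not rise (-0.96, adjusted p = 0.00171, and -0.53, not called), so 3 of 6 rose, and 21.6% of all tested genes were called higher. TRIM36, a microtubule-associated ligase, stood at 1.33 and 1.52 CPM in A549 and at 5.79 and 6.96 CPM in TD, the largest rise of the family (2.16, SE 0.21, adjusted p = 0.00145). TRIM9, a neuronal ligase of the netrin pathway, stood at 17.5 and 15.5 CPM against 41.9 and 42.9 CPM (1.36, SE 0.093, adjusted p = 0.000504). TRIM46, which organises microtubules in axons, stood at 1.58 and 1.25 CPM against 3.10 and 2.63 CPM (1.02, SE 0.25, adjusted p = 0.0292). The groups did not overlap in any of the 3. The call of TRIM46 ended when A549 replicate 1 or 2 was left out (adjusted p = 0.0992 and 0.159), by DESeq2 (0.0786), with the replicate block (0.061) and with library totals as scaling (0.0531). TRIM67, the closest relative of TRIM9, went the other way, with 35 and 22 counts in A549 and 3 in each TD library (-3.46, SE 0.54, adjusted p = 0.00698). Its adjusted p was 0.0931 without A549 replicate 1. The muscle members of this class were not tested: TRIM54 and TRIM63 had at most 3 counts in a library, and TRIM55 had 9 and 11 counts in A549 and 2 and 4 in TD.

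Members with other C-terminal domains rose or were not called. TRIM8, a ligase of cytokine signalling, stood at 19.0 and 17.7 CPM in A549 and at 36.5 and 44.5 CPM in TD (1.15, SE 0.12, adjusted p = 0.00219). TRIM23, which carries an ARF-type GTPase domain, stood at 8.48 and 10.9 CPM against 19.9 and 21.6 CPM (1.10, SE 0.15, adjusted p = 0.00452). TRIM32, a ligase with NHL repeats that is mutated in a muscular dystrophy, rose by 0.88 (adjusted p = 0.00209). TRIM59, a ligase with a transmembrane segment, rose by 0.57 (adjusted p = 0.00733, and 0.0513 without A549 replicate 1). In these 4 every TD library was above every A549 library. TRIM37, a ligase of centriole control, stood at 38.48 and 38.46 CPM in A549 and at 43.6 and 43.8 CPM in TD. Its groups did not overlap, but it missed the threshold (0.18, SE 0.069, adjusted p = 0.0934). Also not called were TRIM13 and TRIM45 (log2 changes of -0.16 and 0.19) and the NHL members TRIM2 and TRIM3 (-0.26 and 0.22). TRIM71, a stem cell regulator of the same class, was not tested, with 1 and 0 counts in A549 and 5 and 14 in TD, a 15.7-fold higher level by counts (95% counting interval 2.49 to 651). In the fit without a filter on low counts TRIM71 was called higher (adjusted p = 0.0223), and by DESeq2 it was not called (0.203).

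**Figure D4:**
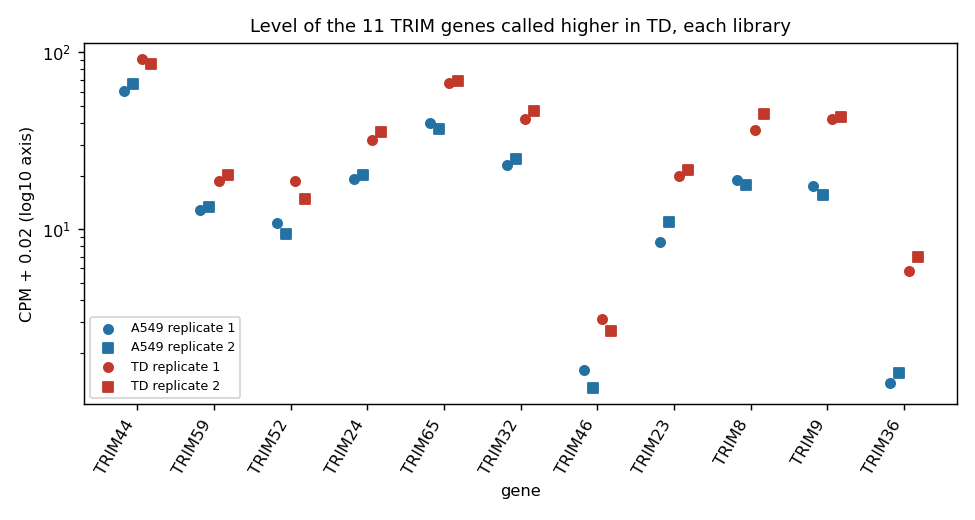
Level of the 11 TRIM genes called higher in TD in each library, as CPM plus 0.02 on a log10 axis, with A549 in blue and TD in red. In all 11 both TD points lie above both A549 points, from TRIM44 with the smallest change (0.49) on the left to TRIM36 with the largest (2.16) on the right.

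Among the 4 chromatin members, 1 was called. TRIM28, also called KAP1, the corepressor of KRAB zinc finger proteins, stood at 598 and 571 CPM in A549 and at 515 and 603 CPM in TD, where the groups overlapped (log2 change -0.06, SE 0.11, adjusted p = 0.671). Leaving out TD replicate 1 turned the log2 change of TRIM28 to 0.06. TRIM24, a coregulator of nuclear receptors, stood at 19.3 and 20.3 CPM against 32.0 and 35.3 CPM and was the member that was called (0.76, SE 0.090, adjusted p = 0.00289). TRIM33, a ligase of the TGF-β pathway that binds SMAD proteins, stood at 32.6 and 35.4 CPM against 40.3 and 41.0 CPM. TRIM33 had a log2 change of 0.26 (SE 0.080) and missed the threshold (adjusted p = 0.0568). It was called in a fit of protein-coding genes (0.0188) and in a fit without pseudogenes (0.0343). TRIM66 had a log2 change of -0.46 and was not called (adjusted p = 0.0678). It was called lower without a filter on low counts (0.0215), in a fit of protein-coding genes (0.0146) and in a fit without pseudogenes (0.00795). The fit of protein-coding genes called 4205 of its 13208 genes higher and 4232 lower. The one without pseudogenes called 4546 and 4877 of 15673, and the main fit 3833 and 3809 of 17785. Calls gained in those fits thus came with more calls among all genes.

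Among the remaining members, with other or no C-terminal domains, 13 of 38 were tested. Besides TRIM40, TRIM35 and TRIM47 fell, by 0.44 each (adjusted p = 0.0184 and 0.0369), and TRIM52 rose by 0.72 (adjusted p = 0.0189). Each of these 3 calls ended when an A549 library was left out. TRIM35 had an adjusted p of 0.0627 without A549 replicate 1. TRIM47 had 0.108 without A549 replicate 1 and 0.0983 without replicate 2, and TRIM52 had 0.11 and 0.164. Exons of other genes on the opposite strand cover 51.5% of the exon bases of TRIM47 and 28.5% of those of TRIM52 in GENCODE 29. The same share was 19.8% for TRIM59 and 14.1% for TRIM8. TRIM59 also shared 14.5% of its exon bases with another gene on its own strand. The strand setting of the counting is not given in the sources used here, so reads of those genes cannot be told apart from theirs. The 9 others, TRIM4, TRIM7, TRIM11, TRIM17, TRIM27, TRIM39, TRIM41, TRIM62 and TRIM68, had log2 changes of -0.10 to 0.61 and were not called. Over the whole family, the groups overlapped in 8 of the 19 members that were not called and in 0 of the 29 that were. With 2 libraries a group, a call leaves little room for overlap, so the 0 adds no support to the calls. The groups did not overlap in 83.3% of the tested members and in 74.0% of all tested genes.

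Of the 30 members without a test, 17 had 0 counts in all 4 libraries and 13 had some. They include the near-identical TRIM49 and TRIM64 copies of chromosome 11, whose reads may align to more than 1 place and then go uncounted. Apart from TRIM10, TRIM55 and TRIM71, none exceeded 3 counts in a library. At these depths 3 counts in a library correspond to 0.068 to 0.112 CPM, so lower levels were not detectable. Such limits cover counting error only.

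Levels can be set against each other only per length, here as CPM per kilobase of exon in GENCODE 29. On this scale TRIM28 was the highest tested member by far, at 148 and 141 CPM per kilobase in A549 and 128 and 149 in TD. TRIM16L was second in either line, at 37.2 and 38.1 in A549 and 27.4 and 34.0 in TD. TRIM21 and TRIM25 held places 3 and 4 in A549, at 32.0 and 23.6 CPM per kilobase on average, and places 9 and 8 in TD, at 6.88 and 7.18. In TD their neighbouring libraries interleaved, so the order of this pair is not resolved there. TRIM65 went from place 8 to place 4 and TRIM32 stood at place 5 in TD, at 17.2 and 11.7 CPM per kilobase on average.

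Of 4 tested TRIM genes under other symbols, 3 fell, beside 21.4% of all tested genes called lower. PML, the scaffold of nuclear bodies and an interferon-induced TRIM protein, stood at 41.5 and 36.6 CPM in A549 and at 14.9 and 19.5 CPM in TD (log2 change -1.18, adjusted p = 0.00409). MID1, a microtubule-bound ligase, stood at 198 and 211 CPM against 98 and 111 CPM (-0.96, adjusted p = 0.00171). TRIML2, a TRIM-like protein, stood at 41.3 and 41.9 CPM against 5.24 and 4.57 CPM (-3.09, adjusted p = 6.94e-05). MID2, the paralog of MID1, had a log2 change of -0.53 and was not called (adjusted p = 0.186). It was called lower in a fit of protein-coding genes (0.0352) and in a fit without pseudogenes (0.0281), which both called more of all genes. The change of MID2 was -0.23 without TD replicate 1 and -0.90 without TD replicate 2. MEFV and TRIML1 were not tested.

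Genes that work with these ligases were counted by list, to be read beside the 21.6% of all tested genes called higher and the 21.4% called lower; differences between lists were not tested. Of 12 tested genes of nucleic acid sensing, 6 fell and 3 rose. The largest falls were those of IFIH1 (the sensor MDA5, -5.96), IRF7 (-5.35) and DHX58 (-4.34, adjusted p = 0.0668 without A549 replicate 1), which rests on 54 counts in A549 and 3 in TD. The genes that rose were MB21D1, the DNA sensor cGAS, with 35 counts in A549 and 797 in TD (4.19, adjusted p = 0.0008), TRAF3 and TRAF6. Of 10 tested genes of interferon signalling, 7 fell and 3 were not called, led by ISG15 (-5.29), USP18 (-4.16) and IRF9 (-2.40). Of 14 enzymes of ubiquitin or ISG15 transfer, 3 fell and 3 rose, which is 21.4% each way and the same as or close to the shares of all genes. Those that fell were UBA7 and UBE2L6, which serve ISG15, and UBE2E1 (-0.58). The largest changes were in UBA7 (-4.97) and UBE2L6 (-2.71), the activating and conjugating enzymes of ISG15, and in UBA6 (1.23), a second ubiquitin-activating enzyme. UBA7 had 8 and 3 counts in TD, and its change was -6.09 without TD replicate 1 and -4.25 without TD replicate 2. The number of ubiquitin enzymes that rose was 1 without A549 replicate 1 or without replicate 2, and 5 without TD replicate 1. Of 7 tested partners of TRIM28, 4 rose and 1 fell, led by CHD3 (1.15), CBX1 (0.89) and CBX5 (0.73), and the gene that fell, SETDB1, lost its call without A549 replicate 1, A549 replicate 2 or TD replicate 2. The SMAD proteins bound by TRIM33 changed by less than 2-fold: SMAD3 fell by 0.64, SMAD2 by 0.33 (adjusted p = 0.0626 without A549 replicate 2) and SMAD4 rose by 0.34 (0.068 without A549 replicate 1 and 0.0976 without replicate 2). These genes and the innate immune members were measured in the same libraries, and the part of interferon signalling in the members' values was not tested.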

How the data were processed

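RNA-seq data of 2 A549 and 2 TD libraries were used. The authors deposited raw counts for each gene, 1 table a library. FastQC 0.11.8, STAR 2.7.1a, HTSeq 0.11.2 and the build hg19 are named, per the submitters' processing notes. Which annotation and strand setting HTSeq used is not given in the sources used here. HTSeq's summary lines (reads in no gene 6.12% to 7.79%, in more than 1 gene 2.34% to 2.56%, not uniquely aligned 8.08% to 9.22%) were left out of library sizes.

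Symbols, gene types, exon lengths, exon overlaps and gene order came from GENCODE 29, matched by Ensembl identifier (52338 of 57820). It is on another build, so no coordinates were taken from it. Promoter windows came from RefSeq (GRCh38.p14).

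TD was compared with A549 by the quasi-likelihood test in edgeR 4.0.16 (R 4.3.3) over all genes, with TMM scaling, the default expression filter (minimum count 10) and Benjamini-Hochberg adjustment over all 17785 tested genes. All adjusted p-values are from this test unless another is named. Levels are CPM on the TMM scale, and a change is the fitted log2 ratio, TD over A549. Its standard error (SE) is the change divided by the root of F. Where a group had no count, 3 counts over that group were used for the bound of a fold. The script was tested on simulated data.

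Members with a called change of at least 2-fold, and TRIM21, TRIM24, TRIM25, TRIM28, TRIM33 and TRIM37, were given in full. All TRIM genes under other symbols and the 3 largest called changes of each partner list were named, and further genes were named after their values were seen. One gene of the interferon signalling list is not reported here and was left out of its counts. The members and lists were chosen with earlier results of these data known. Alternatives were other scalings, DESeq2 1.42.0, limma-voom (limma 3.58.1), other filters, gene types, the replicate number as a block and leaving out each library.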

Additional observations from a re-analysis of the deposited data

How the results depend on the processing

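Over the 14 alternatives, 0 called members changed direction. The number of members that rose was 11 and ranged from 7 to 12 with a library left out (7 without A549 replicate 1), and the number that fell was 18 and ranged from 13 to 20. Without A549 replicate 1, 2114 genes of all types were called higher and 2236 lower, against 3833 and 3809 with all libraries, and without A549 replicate 2, 2241 and 2251. The remaining library of a group is then assumed to vary like the other pair. The median change of the members ranged from -0.22 (without TD replicate 2) to -0.0702 (without TD replicate 1) with a library left out. TRIM28, called in neither case, had a change of 0.0554 without TD replicate 1, opposite in sign to its main value, and of -0.184 without TD replicate 2. Other members that were not called and lay near 0 also changed sign. TRIM27 had -0.0279 with upper quartiles, -0.0883 with library totals, -0.00331 with limma-voom, -0.0209 without a filter, -0.0443 with the 5 CPM filter, -0.0124 with protein-coding genes, -0.0317 without pseudogenes and -0.0235 with the replicate block. TRIM4 had -0.0455 with library totals, -0.00755 with the 5 CPM filter and -0.00357 without pseudogenes, and TRIM11 had -0.0209 with library totals. With a library left out, the ranges were -0.0554 to 0.109 for TRIM11, -0.310 to 0.264 for TRIM27, -0.177 to 0.362 for TRIM39, -0.0427 to 0.113 for TRIM4, -0.155 to 0.0750 for TRIM68 and -0.00386 to 0.232 for TRIM7. All 29 calls remained with DESeq2 size factors, upper quartiles, limma-voom and no filter. They also remained in the fit of protein-coding genes and in the one without pseudogenes, which both called more of all genes. With a TD library left out, the spread came from the A549 pair alone and more of all genes were called. Calls kept or gained in those fits are therefore no check on the main calls. TRIM16 and TRIM16L gained a call with upper quartiles, library totals, the 5 CPM filter, protein-coding genes alone, pseudogenes left out and TD replicate 2 left out. Without a filter TRIM16L, TRIM66 and TRIM71 gained a call, and TRIM33 and TRIM66 did with protein-coding genes alone, pseudogenes left out and TD replicate 1 left out. DESeq2's test lost TRIM46 and TRIM47, and library totals lost TRIM46 and TRIM52. The filter of 5 CPM in 2 libraries left 40 members, and all 25 calls among them remained. The labels give both lines replicates 1 and 2 but do not say that the numbers pair the libraries. Over 10760 genes, the difference between replicates 1 and 2 in A549 had a correlation of -0.0970 with that in TD. With the replicate number as a block, 10 members rose and 14 fell, with a median of -0.08, and TRIM35, TRIM38, TRIM40, TRIM46 and TRIM47 lost their calls. The alternatives for partner genes and for counts by class were added after seeing the data. With 2 libraries a group, small changes such as that of TRIM33 sit at the threshold, and TRIM15, TRIM40 and TRIM67 rest on at most 49 counts in a library.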
